A study of Arabidopsis thaliana with 4 samples.

Results

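Of 32356 Arabidopsis thaliana genes with values, 7 described here gave reads almost entirely in 1 of 2 genotypes. MRD1 (AT1G53480), AT3G01345, AT3G28320, AT1G20590, AT2G01550 and hda17 (AT3G44490) were read in the Col-0 wild type and were nearly without reads in nse4a-2. AT1G51120, the gene next to NSE4A, was read in nse4a-2 and had 1 read in the 4 wild-type libraries. The 7 genes were chosen by their reads in these libraries, so their genotype contrast is a description here and carries no test. Their response to zebularine within the genotype that reads them, and the reads of neighbours and relatives that share no sequence with them, did not enter that rule.

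The study measured poly(A) RNA of dissected shoot apices from plants 10 days old, by RNA sequencing of single-end reads. Col-0 wild type (WT) and nse4a-2 were each kept for 24 h in liquid medium without drug (WT_ctrl, nse4a-2_ctrl) or with 20 µM zebularine (WT_zeb, nse4a-2_zeb). All plants had grown for 9 days on drug-free solid medium before the transfer, and leaves, hypocotyl and roots were cut away afterwards. Each of the 4 groups has 2 libraries, R1 and R2, which the file headers call biological replicates. The labels give neither the lesion of nse4a-2 nor how the line was made, so differences tied to the mutation and differences tied to the history of the line cannot be told apart. The RNA is bulk RNA, in which fewer cells of a type and less RNA per cell cannot be told apart.

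NSE4A encodes the kleisin-type subunit of the SMC5/6 complex, a ring-shaped ATPase that acts in DNA repair and in keeping chromosomes intact. Zebularine is a cytidine analog that is taken up into DNA, where it traps DNA methyltransferases and causes DNA damage. Transcription of transposons and of many single genes in plants depends on DNA methylation and histone marks, and can differ between lines of the same accession.

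Total counts ran from 15360494 to 19811948 per library, and 21682 to 22169 genes had reads. In these libraries 3 reads, the upper limit that a count of 0 allows at 95% confidence, equal 0.151 to 0.195 CPM (reads of a gene scaled to the library total). Such limits and all counting intervals below cover counting error only. The intervals pool the libraries of a genotype and describe ratios by which the 7 genes were chosen, so they test nothing. In the wild type NSE4A had 194 and 144 reads without and 215 and 235 with zebularine, and in nse4a-2 it had 132 and 126 without and 291 and 366 with the drug. Its gene-level count therefore did not separate the genotypes in control medium (log2 fold change −0.30 ± 0.17 SE, adjusted p = 0.407, edgeR) and does not check the label. Of 6 markers of the shoot meristem and its boundary, the summed level was 91.3 to 115 CPM over the libraries, although WUS and CLV3 had at most a few reads. Leaf photosynthesis markers summed to 5353 to 8198 CPM and root markers to 0.202 to 3.7 CPM. Single markers did move with the groups, and these were named after their values were seen. The leaf marker LHCB2.1 was lower in nse4a-2 in control medium (log2 −1.01, adjusted p = 0.0131, edgeR) and higher with zebularine in the wild type (1.40, adjusted p = 0.00477). The leaf markers RBCS1A, RCA and GAPA were called in neither of these contrasts. With zebularine in nse4a-2, LHCB2.1 was higher by log2 2.24 (adjusted p = 0.000138, edgeR) and RCA by 0.78 (adjusted p = 0.042). RBCS1A and GAPA were not called there. The root marker COBL9 had 1 to 10 reads in the other libraries and 38 and 61 in nse4a-2_zeb. Its log2 fold change over the wild type there was 4.45 (adjusted p = 0.00125, edgeR). The other root marker, PRP3, had 54 and 23 reads in WT_ctrl and 2 and 3 in nse4a-2_zeb. Between genotypes in zebularine PRP3 was not called (log2 −0.91). The stomatal marker FAMA was higher in nse4a-2 in zebularine (log2 0.60, adjusted p = 0.0112, edgeR), while SPCH and MUTE were not called there. Their part in the values of the 7 genes was not tested.

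MRD1, named for its lower transcript level in the methionine-overaccumulating mutant mto1, was the most abundant of the 6 wild-type genes per length in control medium. It had 1004 and 738 reads in WT_ctrl and 1129 and 717 in WT_zeb. In nse4a-2 it had 1 and 0 reads in control medium and 0 and 8 in zebularine. Every wild-type library was thus far above every nse4a-2 library, an order that the choice of MRD1 by these reads fixed in advance. Over all 4 libraries of a genotype, the level in the wild type was 358 times that in nse4a-2 (95% counting interval 188 to 783).

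AT3G01345, annotated only as an expressed protein, had 413 and 699 reads in WT_ctrl and 2063 and 731 in WT_zeb. In nse4a-2 it had 2 and 4 reads in control medium and 3 and 5 in zebularine. It was the 1 gene of the 6 with reads in all 4 nse4a-2 libraries, yet the wild type was 250 times higher (149 to 459). The wild-type libraries themselves were spread widely, with WT_zeb R1 far above the other three.

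AT3G28320 encodes a protein with domain DUF677, a family that also holds the integrin-like protein AT14A. It had 158 and 206 reads in WT_ctrl and 38 and 71 in WT_zeb, against 0 and 0 in nse4a-2_ctrl and 0 and 14 in nse4a-2_zeb. All 14 reads in the mutant thus came from 1 library, nse4a-2_zeb R2, and the wild type was 30.3 times higher (17.9 to 55.9). In zebularine, where the wild-type level was also low, the mean of nse4a-2 was 14.4% of that of the wild type, and it was 0 in control medium.

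AT1G20590, a cyclin family gene, had 24 and 40 reads in WT_ctrl and 12 and 11 in WT_zeb. Its 1 read in nse4a-2 was in nse4a-2_zeb R2, which gives a ratio of 78.1 with a counting interval from 13.7 to 3120. AT2G01550, a pseudogene of the LINE type of non-LTR retrotransposon, had 56 and 51 reads in WT_ctrl and 59 and 38 in WT_zeb and none in nse4a-2. With 204 reads against 0, the wild type was at least 61.1-fold higher when nse4a-2 is set to a floor of 3 reads over its 4 libraries.

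The gene hda17 carries the name of a histone deacetylase and is short beside the catalytic members of that family. It had 36 and 23 reads in WT_ctrl and 11 and 10 in WT_zeb, against 0 and 2 in nse4a-2_ctrl and 0 and 0 in nse4a-2_zeb. The ratio was 35.9 with a counting interval from 9.62 to 302. These 6 wild-type genes therefore differ in how well the low level is measured: MRD1 and AT3G01345 rest on 3588 and 3906 wild-type reads, AT1G20590 and hda17 on 87 and 80.

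AT1G51120 encodes a transcription factor with an AP2 and a B3 domain, the build of the RAV and TEMPRANILLO factors. It had 36 and 41 reads in nse4a-2_ctrl and 54 and 51 in nse4a-2_zeb, 0 and 0 in WT_ctrl and 1 and 0 in WT_zeb. The ratio of nse4a-2 to wild type was 203, with a counting interval from 35.9 to 8050. Its level in nse4a-2 was low, with an authors' mean of 2.75 FPKM, the fragment count scaled by gene length and library size, in control medium.

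**Figure D1:**
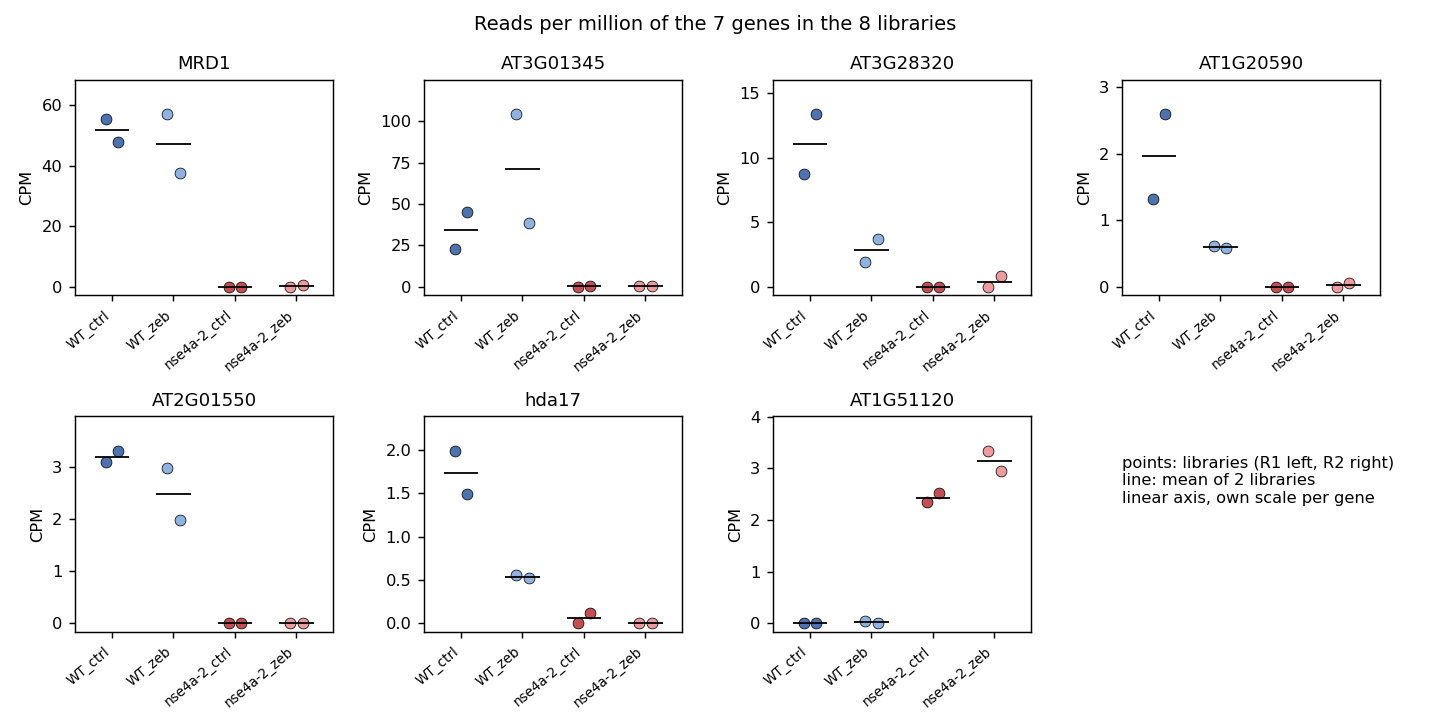
CPM (linear axis, own scale per gene) of the 7 genes in the 8 libraries; points are libraries and lines are means of 2 libraries. The 6 wild-type genes sit at or near 0 in the 4 nse4a-2 libraries, AT1G51120 sits at or near 0 in the 4 wild-type libraries, and AT3G28320 reaches 0.809 CPM in nse4a-2_zeb R2.

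Per length, the 6 wild-type genes spanned a wide range in WT_ctrl. The authors' mean was 61.22 FPKM for MRD1, 23.15 for AT3G01345, 9.67 for AT3G28320, 4.71 for AT1G20590, 3.42 for hda17 and 0.62 for AT2G01550. MRD1 stood at percentile 88.8 of the genes with a value above 0 in that group, and AT2G01550 at percentile 15.8. The gap between AT1G20590 and hda17 was smaller than the gap between the 2 control replicates of AT1G20590. In zebularine MRD1 (56.57 FPKM) and AT3G01345 (48.78 FPKM) were closer to each other than the 2 replicates of AT3G01345, which differed 2.72-fold.

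The few reads in the mutant were not spread evenly over its libraries. Together the 6 wild-type genes had 8338 reads in the 4 WT libraries and 40 in the 4 nse4a-2 libraries. The nse4a-2 libraries held 3 and 6 of these reads in control medium and 3 and 28 in zebularine, so that nse4a-2_zeb R2 alone held 28 and the other three together 12. That library had reads of 4 of the 6 genes and 1.42% of the mean wild-type level, against 0.162 to 0.324% in the others. The origin of these reads was not tested.

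A rule applied to all genes gave the frame for these 7. It asked for at least 98% of the summed CPM in 1 genotype, at least 40 reads there and at least 5 in each of its 4 libraries. It found 7 genes read in the wild type (0.0372% of 18808 genes with enough reads) and 11 read in nse4a-2 (0.0583% of 18857). The 7 became 4 without WT_ctrl R2, and the 11 became 3 or 2 without nse4a-2_zeb R1 or R2 and 20 without WT_zeb R2. MRD1 (99.7%), AT3G01345 (99.6%), AT1G20590 (98.9%) and AT2G01550 (100%) were among the 7, and AT1G51120 (99.55%) among the 11. Just outside the threshold were hda17 with 97.4% and AT3G28320 with 97.2% of their CPM in the wild type. AT3G28320 had all of its reads in the wild type in control medium and 87.4% of its CPM there in zebularine.

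**Figure D2:**
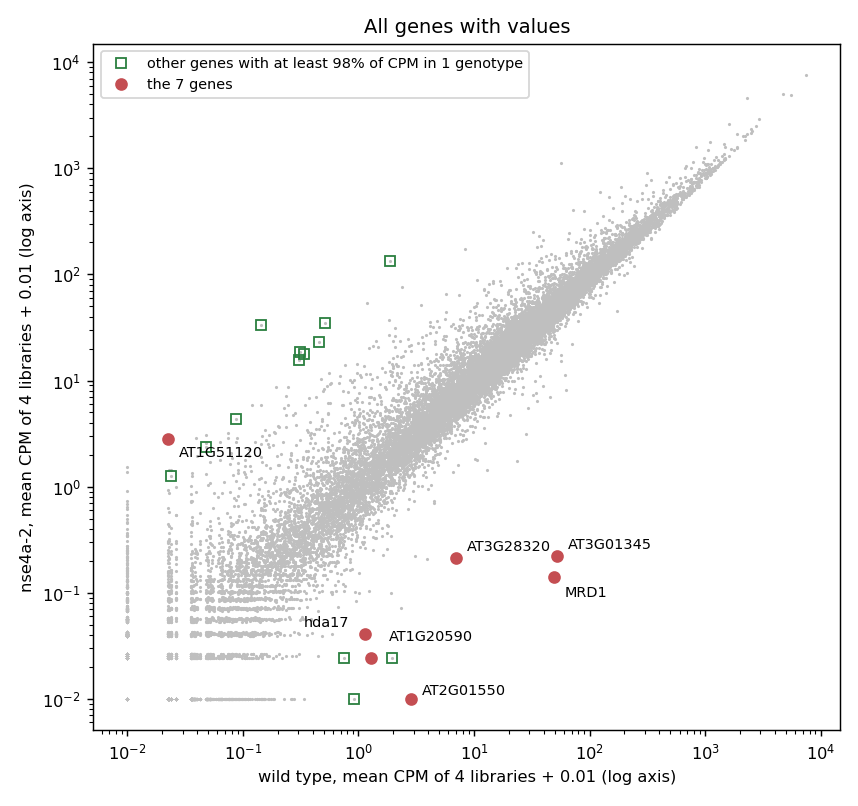
Mean CPM over the 4 wild-type libraries against the mean over the 4 nse4a-2 libraries for every gene with values (both log axes, 0.01 added). Red circles are the 7 genes and green squares the other genes with at least 98% of their CPM in 1 genotype; MRD1 and AT3G01345 lie farthest to the right among the genes near 0 in nse4a-2.

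The 3 other genes read in the wild type were AT1G27570, HISN6B and AT5G66970. AT1G27570, annotated as a phosphatidylinositol 3- and 4-kinase family protein, had 59 and 39 reads in WT_ctrl, 23 and 14 in WT_zeb and 1 in nse4a-2. HISN6B, a gene of histidine synthesis, had 10 to 17 reads in each wild-type library and 1 in nse4a-2, and 24 of 28 sampled read-length windows of its exons occur elsewhere in the genome, so its reads are uncertain. AT5G66970, annotated as a P-loop nucleoside triphosphate hydrolase, had 9 to 24 reads in each wild-type library and 0 in nse4a-2. Both single reads were in nse4a-2_zeb R2, the library that also held most of the reads of the 6 genes above.

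AT1G51120 had a smaller ratio of zebularine to control in nse4a-2 than the 10 other genes that reached 98% there. Those were GolS3, DRP4C, AT1G72060, PNP-A, SK9, LTI30, AT3G53040, ARCK1, CRK6 and PBS3, among them a galactinol synthase (GolS3), a dehydrin (LTI30) and an enzyme of salicylate synthesis (PBS3). In nse4a-2 their CPM in zebularine was 5.62 to 95.2 times that in control medium, against 1.29 times for AT1G51120. All 10 reached 98% in zebularine alone, and 2 of them did so in control medium alone. They had 1 to 136 reads in the 4 wild-type libraries. In control medium AT1G51120 had all of its 77 reads in nse4a-2, as DRP4C and SK9 had all of theirs. The 98% rule sums CPM over both media, so a gene much higher in nse4a-2_zeb can pass through those libraries. In control medium alone the share of the 10 in nse4a-2 went down to 82.5%. Their high ratios are therefore partly fixed by the rule. No test of this contrast was made, since the share in 1 genotype chose all 11.

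**Figure D3:**
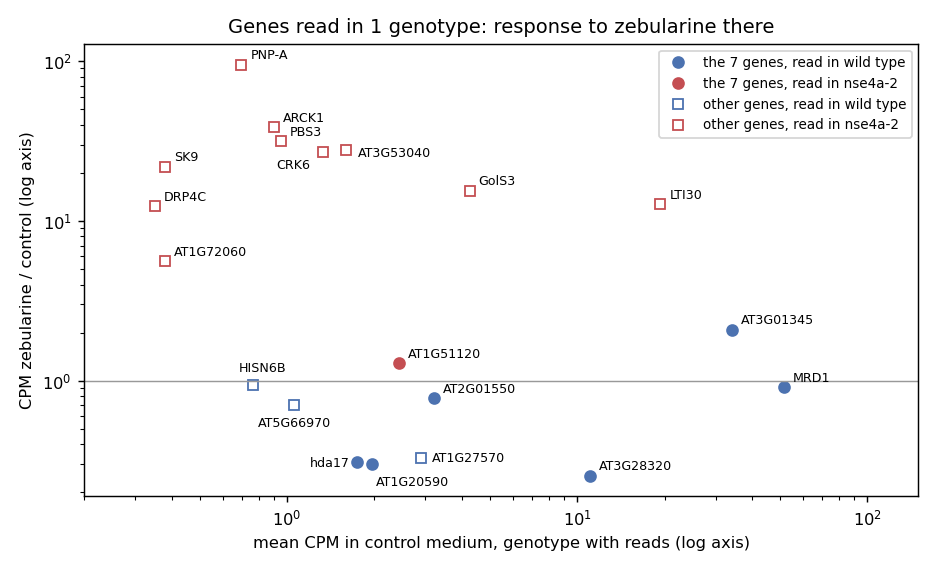
Mean CPM in control medium in the genotype with reads (x, log axis) against the ratio of mean CPM in zebularine to control in that genotype (y, log axis). Filled circles are the 7 genes and open squares the other genes past the 98% rule; AT1G51120 lies at a ratio of 1.29, below the 10 other nse4a-2 genes, which lie at 5.62 to 95.2.

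The response of these genes to zebularine was tested within the genotype that reads them. The spread in these tests was estimated over all 8 libraries. The near-empty libraries of the other genotype, by which the genes were chosen, therefore bear on the p-values and SEs. All 7 passed the low-count filter, which asks for 0.597 CPM in at least 2 libraries. In hda17 only the 2 WT_ctrl libraries reached that level, and in AT1G20590 the 2 WT_ctrl libraries and 1 of WT_zeb did, so a lower level in zebularine is partly fixed for both by the filter. In the wild type, 0 of the 6 genes passed edgeR's quasi-likelihood test at an adjusted p below 0.05, where 2.3% of the 19682 genes tested did. At an unadjusted p below 0.05 there were 4 of 6, against 15.9% of all genes. DESeq2 called 1 of 6 (4.5% of all genes), and the authors' deposited table calls 2 of 6 (3.47% of its genes). The authors' share is over all 32356 genes with values, 8190 of them without a read, and the other shares are over the 19682 genes tested. With the 4 wild-type libraries alone, edgeR also called 0 of the 6. All these counts over the 6 are descriptions, since the filter bears on 2 of the 6.

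In 4 of the 6 genes, AT3G28320, AT1G20590, hda17 and AT2G01550, both WT_zeb libraries lay below both WT_ctrl libraries, as they did in 26.2% of all genes tested. This count is a description too, since the low-count filter partly fixes that order for AT1G20590 and hda17. AT3G28320 was at 8.73 and 13.4 CPM in WT_ctrl and at 1.92 and 3.72 CPM in WT_zeb, a log2 fold change of −1.93 ± 0.58 SE (adjusted p = 0.136, edgeR). AT1G20590 was at 1.33 and 2.59 CPM without and 0.606 and 0.576 CPM with zebularine (log2 −1.69 ± 0.55, adjusted p = 0.165, edgeR). The gene hda17 was at 1.99 and 1.49 CPM without and 0.555 and 0.523 CPM with zebularine (log2 −1.66 ± 0.55, adjusted p = 0.174, edgeR). None of these differences passed the test over all genes. For AT3G28320, the authors' deposited table gives a log2 fold change of −1.91 with an adjusted p of 0.001, whereas DESeq2 gave an adjusted p of 0.875. With the 4 wild-type libraries alone, edgeR gave AT3G28320 a log2 fold change of −1.93 with an adjusted p of 0.0698. It passed in edgeR without a low-count filter (adjusted p = 0.0192), and its adjusted p ran from 0.0192 to 0.875 over the alternatives.

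AT3G01345 had the 1 higher estimate. It was at 22.8 and 45.3 CPM in WT_ctrl and at 104 and 38.3 CPM in WT_zeb, so the groups overlapped. The log2 fold change was 1.07 ± 0.39 SE (adjusted p = 0.212, edgeR), and DESeq2 called it (adjusted p = 0.0437). The authors' deposited table calls it too, with a log2 fold change of 1.08. This value rests on WT_zeb R1: without that library the log2 fold change was 0.25, and without WT_zeb R2 it was 1.59 (adjusted p = 0.0404, edgeR).

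MRD1 and AT2G01550 had intervals on both sides of 0. MRD1 was at 55.5 and 47.9 CPM in WT_ctrl and 57.0 and 37.5 CPM in WT_zeb (log2 −0.12, 95% interval −0.68 to 0.45). AT2G01550 was at 3.09 and 3.31 CPM without and 2.98 and 1.99 CPM with zebularine (log2 −0.35, 95% interval −1.20 to 0.50). In nse4a-2, AT1G51120 was at 2.34 and 2.53 CPM without and 3.34 and 2.95 CPM with zebularine. Both zebularine libraries lay above both control libraries, as in 26.4% of all genes tested, but the log2 fold change of 0.40 ± 0.38 SE did not pass (adjusted p = 0.533, edgeR, 95% interval −0.46 to 1.26), where 14.7% of all genes did.

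**Figure D4:**
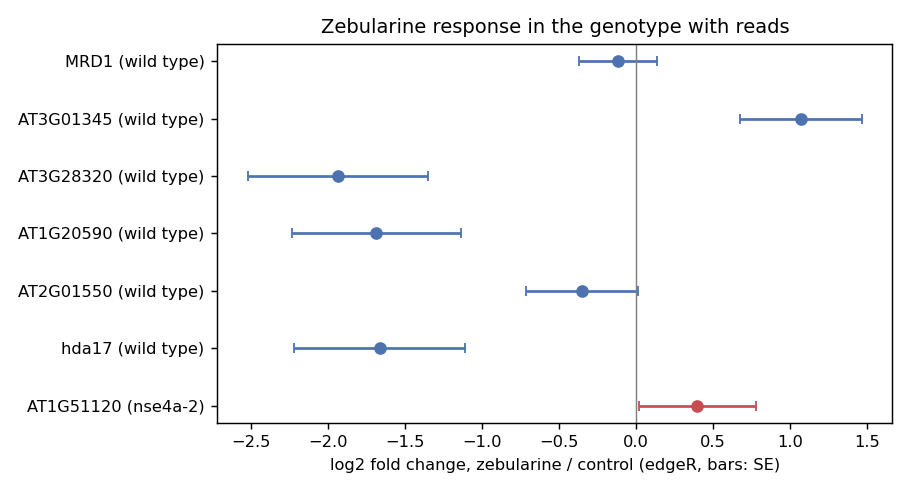
Log2 fold change of zebularine over control with its SE (edgeR) for the 7 genes, each in the genotype with reads (blue, wild type; red, nse4a-2). AT3G28320, AT1G20590 and hda17 lie between −1.93 and −1.66 and AT3G01345 at 1.07; none passed at an adjusted p below 0.05.

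In the authors' deposited table, 5 of the 7 genes are called for nse4a-2 against wild type in control medium, where 3.9% of its genes are. That share is over all 32356 genes with values, including those without a read. MRD1 and hda17 are not, at adjusted p values of 0.474 and 0.479, and AT3G01345 is called at 0.049. These calls belong to the contrast that chose the genes. The tabulated log2 fold change of MRD1 is −10.57.

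The genes beside the 7 were next examined, up to 2 on each side in the order of the reference annotation. Of these 28 flanking genes 18 passed the filter, and the other 10 had 0 to 9 reads in every library. In control medium 2 of the 18 differed between genotypes, 1 higher and 1 lower in nse4a-2, where 3.13% of all genes did, 2.28% higher and 0.854% lower (edgeR, adjusted p below 0.05). In zebularine 5 of the 18 did, 3 higher and 2 lower, where 22% of all genes did, 12.9% higher and 9.09% lower. HEI10, the lower gene in control medium, shares exon bases with MRD1, so its call is not independent of the choice of MRD1. The 5 in zebularine include HEI10 again and NSE4A, the gene that names the mutant line. The count in control medium was 0 without WT_ctrl R1 and 1 without nse4a-2_ctrl R2, and that in zebularine was 3 without WT_zeb R1 or nse4a-2_zeb R2. The median log2 fold change of the 18 was 0.07 in both media, against −0.01 and −0.02 over all genes. The 13 flanking genes called in neither medium had log2 fold changes between −0.57 and 0.88.

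HEI10, which encodes a ubiquitin or SUMO ligase of meiotic crossing over, lies on the opposite strand to MRD1, and the exons of both overlap by 922 of the 1250 exon bases of MRD1. It had 264 and 217 reads in WT_ctrl, 407 and 257 in WT_zeb, 92 and 50 in nse4a-2_ctrl and 67 and 89 in nse4a-2_zeb. Every wild-type library was above every nse4a-2 library. The log2 fold change was −1.67 ± 0.28 SE in control medium (adjusted p = 0.0166, edgeR) and −1.86 ± 0.28 in zebularine (adjusted p = 0.00174). Without WT_ctrl R1 the first was −1.62 with an adjusted p of 0.0928, and without nse4a-2_ctrl R2 it was −1.27 with an adjusted p of 0.0933. The authors' deposited table does not call HEI10 in control medium (log2 fold change −1.66, adjusted p of 0.383). Whether the counting used strand is not given in the sources used here, so reads of HEI10 and MRD1 over the shared bases cannot be told apart. The difference in HEI10 is therefore not independent of the choice of MRD1. MUM4 and MSL4, the next genes with no call, had log2 fold changes of 0.18 and 0.38 in control medium.

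Beside hda17, the immune receptor gene RPP1, which recognises downy mildew, had 464 and 431 reads in WT_ctrl and 761 and 1136 in nse4a-2_ctrl. In zebularine it had 840 and 815 reads in the wild type and 2194 and 2819 in nse4a-2. It was thus higher in nse4a-2, the opposite direction to hda17, by a log2 fold change of 1.16 ± 0.17 SE in control medium (adjusted p = 0.00988, edgeR) and 1.82 ± 0.17 in zebularine (adjusted p = 0.00016). Without WT_ctrl R1 the control value was 1.12 with an adjusted p of 0.0846. AT3G44470 and AT3G44500, also beside hda17, had no read in any library.

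On the side of AT1G51120 that faces NSE4A, the annotated genes lie on opposite strands and share no exon bases. NSE4A was higher in nse4a-2 than in the wild type in zebularine (log2 0.76 ± 0.16 SE, adjusted p = 0.00999, edgeR), though not without WT_zeb R1 or nse4a-2_zeb R2 (adjusted p = 0.0669 and 0.0879). FBH3, a bHLH factor that activates CONSTANS, was lower there (log2 −1.31 ± 0.18, adjusted p = 0.00119). AT1G51110 and CRR41, on the other side, had log2 fold changes from −0.14 to 0.17 over both media and were not called. AT1G51090, the third gene on that side and named after its values were seen, had 15 and 18 reads in WT_ctrl and 93 and 88 in nse4a-2_ctrl. It was called in both media, by log2 2.52 ± 0.49 SE in control medium (adjusted p = 0.0257, edgeR) and 2.82 ± 0.39 in zebularine (adjusted p = 0.0011).

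The other members had few neighbours that differed among the 2 on each side. AT2G01540, beside the LINE pseudogene AT2G01550, was higher in nse4a-2 in zebularine (log2 0.95 ± 0.23 SE, adjusted p = 0.0171, edgeR), but not without WT_zeb R1 or nse4a-2_zeb R2 (adjusted p = 0.0955 and 0.13). None of the 4 genes beside AT3G01345 was called in either medium, and their log2 fold changes were −0.57 to 0.19. AT1G20580, next to AT1G20590, had 1564 to 2617 reads in every library and was not called. AT1G20600, on its other side, had 3 and 2 reads in WT_ctrl and at most 2 elsewhere. AT3G28310, AT3G28315 and AT3G28330, around AT3G28320, had 0 to 9 reads in every library. Taking up to 4 genes on each side, as plotted, 5 of 35 tested neighbours were called in control medium (4 higher and 1 lower in nse4a-2) and 10 of 35 in zebularine (7 higher and 3 lower), beside 3.13% and 22% of all genes. Both counts include HEI10, and the count in zebularine includes NSE4A. Beyond the 2 nearest genes a side, AT3G44450 near hda17 was called in both media, as AT1G51090 was. ABCB15 near AT3G28320 was called in control medium only. AT1G53440 near MRD1, and AAE1 and CAT3 near AT1G20590, were called in zebularine only. These genes too were named after their values were seen.

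**Figure D5:**
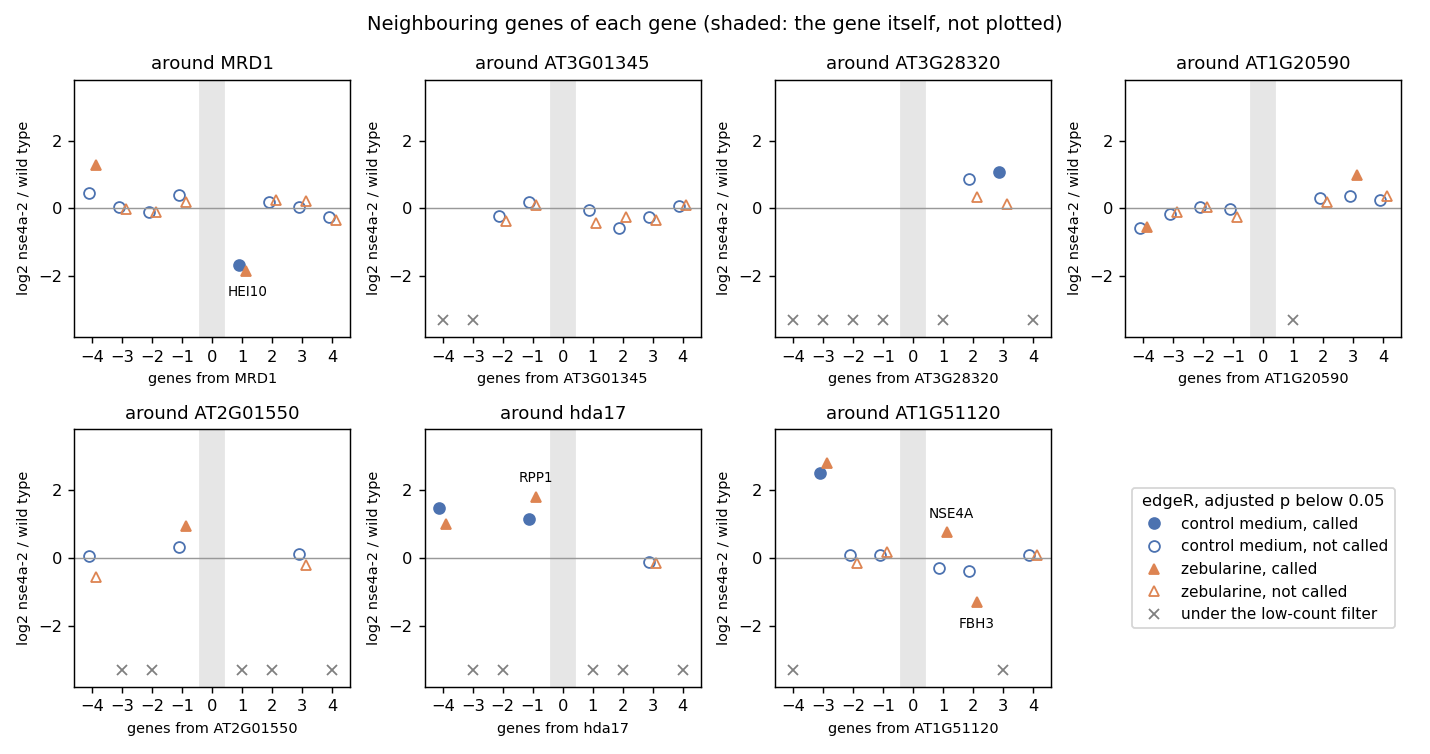
Log2 fold change of nse4a-2 over wild type (y) for up to 4 genes on each side of each of the 7 genes, by gene order (x), in control medium (blue circles) and zebularine (orange triangles); filled symbols are called by edgeR and crosses mark genes under the low-count filter. HEI10 lies near −1.67 and −1.86 beside MRD1, and RPP1 at 1.16 and 1.82 beside hda17.

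Reads can be assigned to a gene only where its sequence is its own. Windows of 100 bases along the exons, the read length of the study, were searched in the genome with up to 2 mismatches. For AT3G01345 0 of 1513 windows and for AT3G28320 0 of 855 occurred elsewhere, and for MRD1 8 of 1052. For AT1G51120 it was 26 of 960, for hda17 47 of 188 (25.0%), for AT2G01550 2282 of 5033 (45.3%) and for AT1G20590 154 of 303 (50.8%). Of all genes, 85.2% had no sampled window that occurs elsewhere. The counts of AT1G20590, AT2G01550 and hda17 are therefore uncertain where such reads were placed by the authors' processing.

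Relatives of 3 of these genes had reads in both genotypes. CYCB2;3, a B2-type mitotic cyclin next but 1 to AT1G20590 that also has 154 windows found elsewhere, had 498 and 321 reads in WT_ctrl and 489 and 453 in nse4a-2_ctrl. HDA9, an RPD3-type deacetylase to which hda17 is related, had 417 and 332 reads in WT_ctrl and 428 and 436 in nse4a-2_ctrl. Of its 584 windows 137 occur elsewhere, so its counts are uncertain too. AT5G28919, named as best protein match in the deposited description of AT3G01345, had 1269 to 1680 reads in every library. None of these 3 was called between genotypes in either medium, with log2 fold changes of 0.09 to 0.30. The other matches had few or no reads: AT5G03090, matched to MRD1, had 0 to 6 reads in a library, and AT1G50680 (a relative of AT1G51120) and AT3G28290 (a relative of AT3G28320) had none.

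Over 34 listed relatives, 27 passed the filter. Between genotypes in control medium 0 of the 27 were called by edgeR and 0 by DESeq2, with 4 at an unadjusted p below 0.05, where 3.13% of all genes were called. In zebularine 4 of the 27 were called, where 22% of all genes were, 3 higher and 1 lower in nse4a-2, with a median log2 fold change of −0.02 against −0.02 over all genes. Without nse4a-2_zeb R1 or R2 these 4 became 2 or 1. Among 9 histone deacetylases with enough reads HDA5 (log2 0.58 ± 0.11 SE, adjusted p = 0.007 by edgeR) and HDA18 (0.84 ± 0.23, adjusted p = 0.027) were higher, and 2 of 9 is close to the 22% of all genes. HDA18 was not called without any 1 of the 4 zebularine libraries, nor HDA5 without nse4a-2_zeb R2 (adjusted p = 0.0586). hda10, another short gene of that family, had 2 and 1 reads in WT_ctrl and none in the other libraries.

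Among 4 RAV and TEM factors with reads, AT3G25730 was higher in nse4a-2 in zebularine (log2 1.10 ± 0.23 SE, adjusted p = 0.008, edgeR). RAV1, TEM1 and TEM2, of which the TEM proteins repress flowering, were not called between genotypes. None of the 4 B2-type cyclins was called between genotypes, with a median log2 fold change of −0.34 in control medium. Of the 4 AT14A-type genes none passed the filter, and AT3G28270 reached 12 reads at most.

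MRD1 takes its name from the methionine pathway, whose 10 listed genes all passed the filter. CGS1, the cystathionine gamma-synthase altered in mto1, had log2 fold changes between genotypes of 0.06 in control medium and −0.25 in zebularine and was not called. In zebularine MS2, a methionine synthase, was lower in nse4a-2 (log2 −0.71 ± 0.18 SE, adjusted p = 0.022, edgeR), but not without WT_zeb R2 or either nse4a-2_zeb library. MGL, which breaks methionine down, was higher with zebularine in the wild type (log2 1.03 ± 0.18, adjusted p = 0.022) and in nse4a-2 (0.88 ± 0.18, adjusted p = 0.011). The difference between genotypes in the zebularine response was called for 0 of 44 flanking genes and relatives by edgeR and 0 by DESeq2, with 6 at an unadjusted p below 0.05, where edgeR called 0.772% of all genes.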

How the data were processed

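The deposited table holds, per the file headers, the authors' raw read count per gene for R1 and R2 of each group, the authors' mean FPKM per group, and the authors' log2 fold change, adjusted p-value and call of 3 comparisons. The submitters' processing notes name TopHat2, Cuffdiff and TAIR10, while the counting tool, annotation and strand setting are not given in the sources used here. The FPKM of each library and the SD over them, 12 per-sample columns, were left out.

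The members, lists and tests were chosen with earlier results of these data known. CPM is the deposited count scaled to the library total. Of 32399 listed genes 43 had no values. Counts were filtered with filterByExpr (19682 genes), scaled by TMM (factors 0.957 to 1.03) and fitted over 4 groups with edgeR 4.0.16 (R 4.3.3, limma 3.58.1). Each contrast had a quasi-likelihood test, 2-sided, and Benjamini-Hochberg adjustment over every gene in the fit, and a call is an adjusted p below 0.05. SE is the log2 fold change divided by the square root of F, and its 95% interval uses the t distribution with the degrees of freedom of the fit. p-values rest on 2 libraries a group. Alternatives were DESeq2 1.42.0, its size factors, no filter, the replicate number as a block, each of the 8 libraries left out, and, chosen after seeing the data, fits of 1 genotype alone and the count of reads without nse4a-2_zeb R2. The fit was tested on simulated counts.

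Ratios with few reads have a 95% exact counting interval. Gene order, strands, exon overlap and windows (100 bases, bwa 0.7.19) come from TAIR10.1, in which 31892 genes were found. It differs by name from the authors' build, so coordinates and sequences are not given. Named genes are the 7, NSE4A, 2 flanking genes a side, the listed relatives, best protein matches, genes past the 98% rule and tissue markers. AT1G51090, the other called neighbours beyond the flanking genes, and the single leaf, root and stomatal markers were named after their values were seen. Best protein matches come from the deposited descriptions. Other steps ran in Python 3.11.15 with numpy 2.4.6, pandas 2.3.3 and, for figures, matplotlib 3.10.9.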

Additional observations from a re-analysis of the deposited data

Results flagged for a closer look

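The zebularine response of the root marker COBL9 differed between the genotypes: the log2 fold change in nse4a-2 was 5.77 above that in the wild type (adjusted p = 0.0362, edgeR, interaction of genotype and zebularine). It had 4 and 1 reads in WT_zeb and 38 and 61 in nse4a-2_zeb. The other root marker, PRP3, had 0 and 11 reads in WT_zeb and 2 and 3 in nse4a-2_zeb, and its difference was not called.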

How the results depend on the processing

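The count of the 6 wild-type genes called for zebularine was 0, and 1 with DESeq2, with no low-count filter and with the replicate block, and 0 to 1 with single libraries left out. The gene called under the replicate block was AT3G28320 (adjusted p = 0.0306, edgeR). Same-numbered replicates deviated together at r of −0.0863 to 0.234 across genes, so their numbers were not taken as a pairing. The log2 fold change of MRD1 changed sign without WT_ctrl R1 (0.00818) and without WT_zeb R2, and ran from −0.386 to 0.113 with single libraries left out. AT1G20590, hda17 and AT2G01550 in the wild type and AT1G51120 in nse4a-2 kept direction in all 13 alternatives, AT1G51120 at 0.28 to 0.51. None of them was called in the main fit or in any alternative. For AT1G20590 and hda17 the low-count filter partly fixes that direction wherever it was applied.

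With single libraries left out, the flanking genes called ran from 0 to 3 in control medium (0 without WT_ctrl R1, 1 without nse4a-2_ctrl R2) and from 3 to 5 in zebularine. The relatives called ran from 0 to 1 and from 1 to 5, with 1 without nse4a-2_zeb R2. HEI10, RPP1, FBH3 and AT3G25730 in zebularine stayed called in all 12 alternatives.

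Of the genes read in the wild type alone there were 7 at a 98% share, 12 at 95%, 4 at the strictest share tried, 4 with at least 100 reads, and 4 to 9 with single libraries left out (4 without WT_ctrl R2). Of those read in nse4a-2 alone there were 11, 32 at 95%, 2 at the strictest, and 2 to 20 with single libraries left out (2 without nse4a-2_zeb R2, 3 without R1, 20 without WT_zeb R2). The reads of the 6 genes in nse4a-2 fell from 40 to 12 without nse4a-2_zeb R2. With 2 libraries a group and 87 and 80 wild-type reads, the 95% intervals of the zebularine response were wide for AT1G20590 (log2 −2.94 to −0.44) and hda17 (−2.92 to −0.40). For both genes a lower level in zebularine is partly fixed by the low-count filter, so these intervals are a description.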
